A study of Oryza sativa with 9 samples.

Results

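OsTudor-SN is the rice gene that is mutated in the line EM1084 and added back in its complemented line. It was taken as the single row LOC_Os02g32350 of an RPKM table (reads per kilobase of transcript, scaled to the mapped reads of the library) that lists 31263 loci, and its row was followed through all 9 libraries. The plants grew at 27 °C in a day of 12 h light and 12 h dark, and the libraries came from their dehulled developing seeds, taken 10 to 14 days after flowering. The complemented line, pHL8042/EM1084, is a transgenic of EM1084 that carries a wild type OsTudor-SN copy (3 libraries). EM1084 carries the protein change E503K in OsTudor-SN, in which a glutamate is replaced by lysine (3 libraries). The wild type has neither (3 libraries). The labels name 1 transgenic line and 1 mutant line, and neither the promoter of the transgene nor the parent of the lines is given in the labels. The mutated OsTudor-SN gene of EM1084 is also present in the complemented line, and an RPKM value does not separate its transcripts from those of the transgene.

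Tudor-SN proteins are conserved RNA-binding proteins built from a row of staphylococcal nuclease-like domains followed by a Tudor domain. In rice endosperm, the starch- and protein-storing tissue of the seed, OsTudor-SN is known as a cytoskeleton-associated protein that takes part in carrying prolamin and glutelin mRNAs to separate regions of the endoplasmic reticulum. In Arabidopsis, Tudor-SN proteins are known as scaffolds of stress granules and processing bodies, the cytoplasmic bodies in which mRNAs are held or degraded.

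The gene lies on the minus strand of chromosome 2, from 19098854 to 19105533 in the coordinates printed in the table, whose build is not named, a span of 6680 bp. RPKM values move in steps of whole reads, and these steps gave a transcript length of 3637 nucleotides for OsTudor-SN, 54.4% of its span, so that the remainder was not counted as transcript. No other listed locus overlaps it. The same steps gave 22880, 24601 and 24081 reads on OsTudor-SN in the complemented line, 9608, 11702 and 12575 in EM1084, and 3496, 3282 and 1857 in wild type. The gene was therefore well covered in every library, and counting error (1 SD of a Poisson count) was between 0.638% and 2.32% of its value. Even numbers were the more common among low read numbers (54.5% to 68.2% of values of 1 to 20 reads), so that reads need not be separate fragments and the true counting error can be larger.

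Libraries held 5778627 to 18449248 mapped reads, and all 3 wild type libraries were shallower than the other 6. The part of this difference in depth in the results was not tested. The labelled tissue matched its markers, since 12 glutelin loci, which mark filling endosperm, took 35% to 38.4% of the reads in listed loci in the complemented line, 27% to 27.3% in EM1084 and 35.4% to 39.6% in wild type. A list of 7 embryo and aleurone loci took 0.174% to 0.219% in the complemented line, 0.165% to 0.196% in EM1084 and 0.102% to 0.118% in wild type. A list of 7 green tissue loci summed to between 3.54 and 7.63 RPKM in any library. No locus of these lists was at 0 in all libraries of a genotype. The summed embryo and aleurone share was higher in the complemented line and in EM1084 than in wild type, but its members differed: of the 6 that passed the filter on low values, the limma test described below called 3 higher and 3 lower in EM1084 than in wild type, with a median log2 fold change of -1.20. With median-of-ratios scaling the calls were 2 higher and 4 lower. The part of these markers in the results was not tested. Samples are whole seeds, so that fewer cells of a type and less RNA per cell cannot be told apart.

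OsTudor-SN was most abundant in the complemented line, lower in EM1084 and lowest in wild type when RPKM was read as deposited. It read 348, 367 and 389 RPKM in the complemented line, 206, 212 and 221 RPKM in EM1084, and 91.1, 97.6 and 88.4 RPKM in wild type. No library of a genotype reached the range of another, and the means were 368 ± 20.3 RPKM in the complemented line, 213 ± 7.51 RPKM in EM1084 and 92.3 ± 4.73 RPKM in wild type (SD, n = 3 each). An exact permutation test among the genotypes gave p = 0.00357, the smallest that 280 arrangements of the libraries can give. The limma F-test gave an adjusted p of 4.5e-10, in a table where 93% of the 15450 loci tested passed it. The order complemented line over EM1084 over wild type without overlap was found in 1004 loci (6.5%), while the most common strict order was EM1084 over the complemented line over wild type (5559 loci, 36%).

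**Figure D1:**
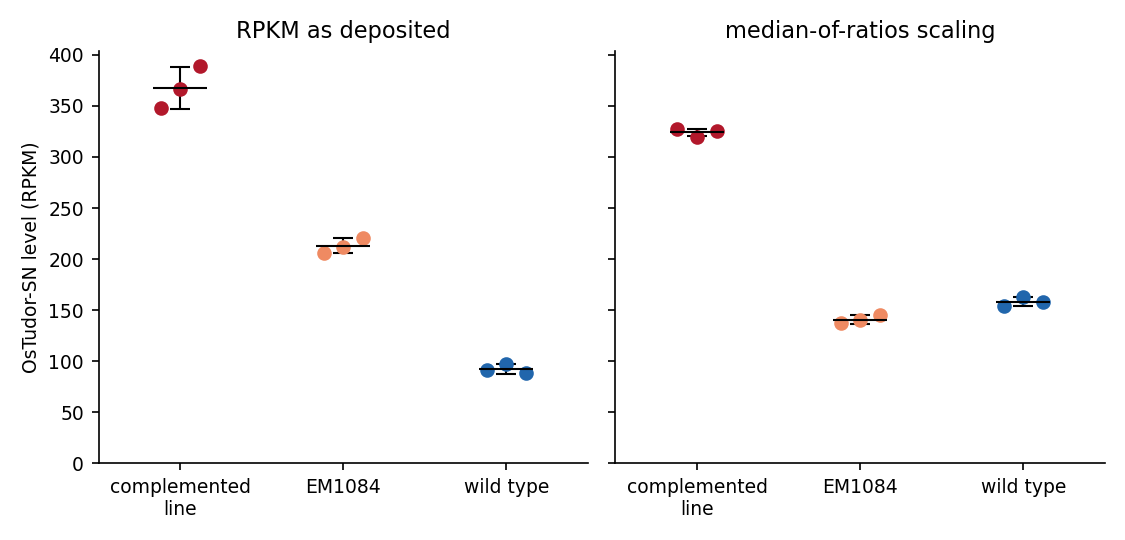
OsTudor-SN level (RPKM) in each of the 3 libraries of the complemented line, EM1084 and wild type, as deposited (left) and after median-of-ratios scaling (right); points are libraries, and bars give the mean ± SD. The complemented line is highest in both panels (348 to 389 and 320 to 327 RPKM), whereas EM1084 lies above wild type on the left and below it on the right.

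The gene was an abundant transcript in every genotype. Ranked by RPKM, it stood at places 109 to 112 in the complemented line, 221 to 232 in EM1084 and 310 to 334 in wild type, among 18494 to 23898 loci above 0. Replicates lay close together: the pooled SD of log2(RPKM + 1) within genotypes was 0.0684, and 5.36% of the 4664 loci with a mean of at least 10 RPKM had a smaller one (median 0.141). On the deposited scale the 3 complemented libraries were the most spread in absolute terms, and after median-of-ratios scaling, which sets libraries level on their typical locus, they were the tightest (327, 320 and 325 RPKM, a coefficient of variation of 1.22%, against 5.51% before).

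The first comparison asks whether the mutant line makes more or less OsTudor-SN transcript than the wild type. OsTudor-SN was 2.3-fold higher in EM1084 than in wild type on deposited RPKM (log2 fold change 1.20, 95% interval 1.03 to 1.37, SE 0.08, adjusted p = 1.2e-08 by limma with Benjamini-Hochberg adjustment), but its direction turned under 2 of the 4 other scalings. It shared the increase with most loci: 13604 of 15450 were called (88.1%), 12781 higher (82.7%) and 823 lower (5.33%), and the median locus stood at 1.06. The 2 genotypes did not overlap for OsTudor-SN, and EM1084 lay wholly above wild type in 12675 loci (82%). Of all loci tested, 41.9% had a larger log2 fold change than OsTudor-SN. Its distance from the median locus was 0.13 with the pseudocount of 1 used here, and -0.26 with a pseudocount of 0.1.

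The direction of this comparison depended on the scaling between libraries. Median-of-ratios scaling put OsTudor-SN at 137, 140 and 145 RPKM in EM1084 against 154, 163 and 158 RPKM in wild type, so that every EM1084 library lay below every wild type library, as in 4356 loci (28.2%). The order complemented line, wild type, EM1084 without overlap was then found in 289 loci (1.87%), OsTudor-SN among them. The log2 fold change was then -0.17 (SE 0.06, adjusted p = 0.02 by limma), with 5044 loci called higher (32.6%) and 4074 lower (26.4%). The call was lost when single libraries were left out: without EM1084 replicate 1 the adjusted p was 0.075, without EM1084 replicate 2 it was 0.052, and without wild type replicate 2 it was 0.069. Upper-quartile scaling, chosen after the data were seen, gave -0.30, while scaling on reads outside the glutelin and prolamin lists gave 0.65 (66.2% of loci called higher and 9.91% lower) and quantile normalization 0.45. The share of listed reads taken by glutelin and prolamin loci moved with genotype (32.4% to 32.9% in EM1084 and 52.5% to 56.9% in wild type). With those reads left out of the totals OsTudor-SN lay 0.03 below the median locus. That scaling multiplies each library by a single factor, so that this distance can differ from the deposited one (0.13) only through the pseudocount. The distance therefore says nothing of the storage reads.

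**Figure D2:**
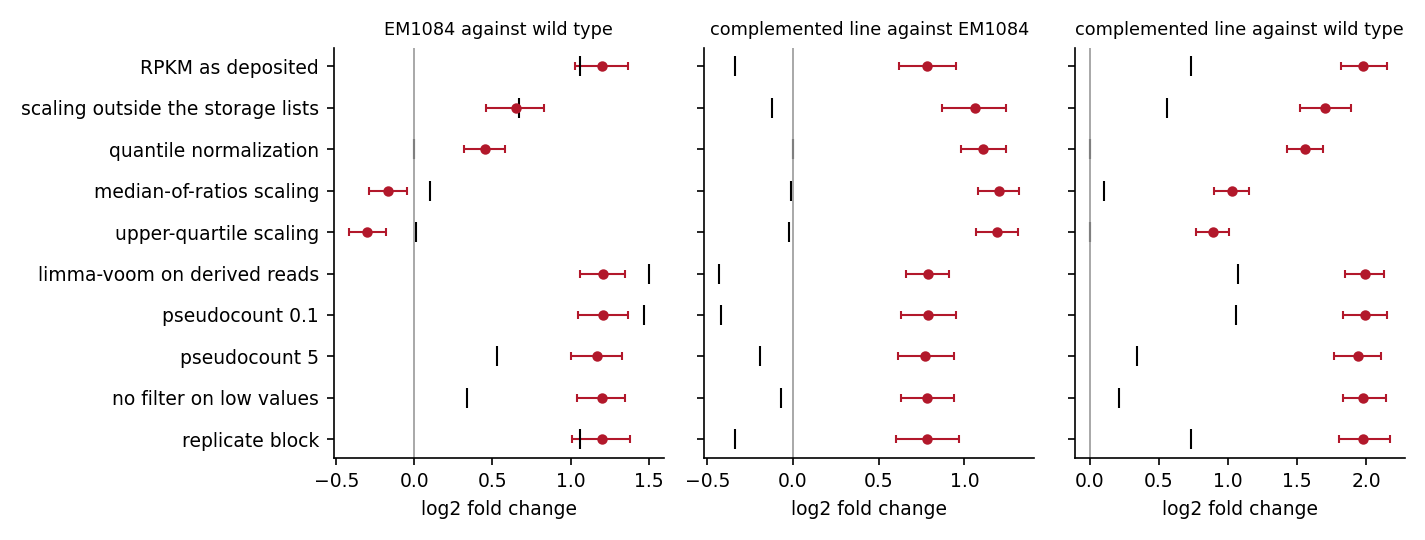
Log2 fold change of OsTudor-SN in each comparison (columns) under 10 settings (rows); red points with bars are the estimate with its 95% interval, black ticks the median of all loci tested under that setting, and the grey line no change. EM1084 against wild type runs between -0.30 and 1.21, on both sides of 0, while both comparisons of the complemented line stay above 0 and above the median locus. A scaling by a single factor per library moves point and tick together, apart from the pseudocount.

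The second comparison asks how the transcript level differs between the line with the added copy and the mutant. OsTudor-SN was called higher in the complemented line than in EM1084, by 1.72-fold on deposited RPKM (log2 fold change 0.78, 95% interval 0.62 to 0.95, SE 0.08, adjusted p = 2.7e-06 by limma). The median locus stood at -0.34, and of the 8579 loci called (55.5%), 1573 were higher (10.2%) and 7006 lower (45.3%). The complemented libraries lay wholly above those of EM1084 for OsTudor-SN and for 1938 loci in all (12.5%), and 5.01% of loci had a larger log2 fold change. Median-of-ratios scaling raised the estimate to 2.29-fold (log2 fold change 1.20, SE 0.06, adjusted p = 3.1e-08), where 18.1% of loci were called higher and 18.9% lower and 27.3% lay wholly above EM1084. Scaling outside the storage lists gave 1.06 (14.9% of loci called higher and 26.2% lower). The distance from the median locus was 1.12 as deposited and between 1.11 and 1.21 under the 4 other scalings. All of these but quantile normalization multiply a whole library by a single factor, which can move this distance only through the pseudocount. Its closeness under them therefore says nothing of stability. With a pseudocount of 0.1 the distance was 1.21, and with a pseudocount of 5 it was 0.96.

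The third comparison asks how far the complemented line stands from wild type. OsTudor-SN was 3.95-fold higher in the complemented line than in wild type on deposited RPKM (log2 fold change 1.98, 95% interval 1.82 to 2.15, SE 0.08, adjusted p = 4.2e-10 by limma), against a median locus of 0.73. Of the 12263 loci called (79.4%), 11124 were higher (72%) and 1139 lower (7.37%), and the complemented line lay wholly above wild type in 71.2% of loci, OsTudor-SN included. A larger log2 fold change was found in 4.39% of loci with the pseudocount of 1, in 16.9% with a pseudocount of 0.1 and in 1.02% with a pseudocount of 5. Under the other scalings that share ran from 2.54% (quantile normalization) to 10.1% (upper-quartile scaling). By p value OsTudor-SN was number 68 among the 15450 loci on deposited RPKM. Under the other scalings its place ran from 64 (quantile normalization) to 553 (upper-quartile scaling). Under median-of-ratios scaling it was 2.04-fold higher (log2 fold change 1.03, SE 0.06, adjusted p = 4.7e-08), with 29.8% of loci called higher, 25% called lower and 31.9% wholly above wild type. Scaling outside the storage lists gave 3.26-fold (60.7% of loci called higher and 10.8% lower), and upper-quartile scaling 1.85-fold. The transcript level of the complemented line was thus above that of wild type under each scaling tried, and the size ran from 1.85-fold to 3.95-fold.

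**Figure D3:**
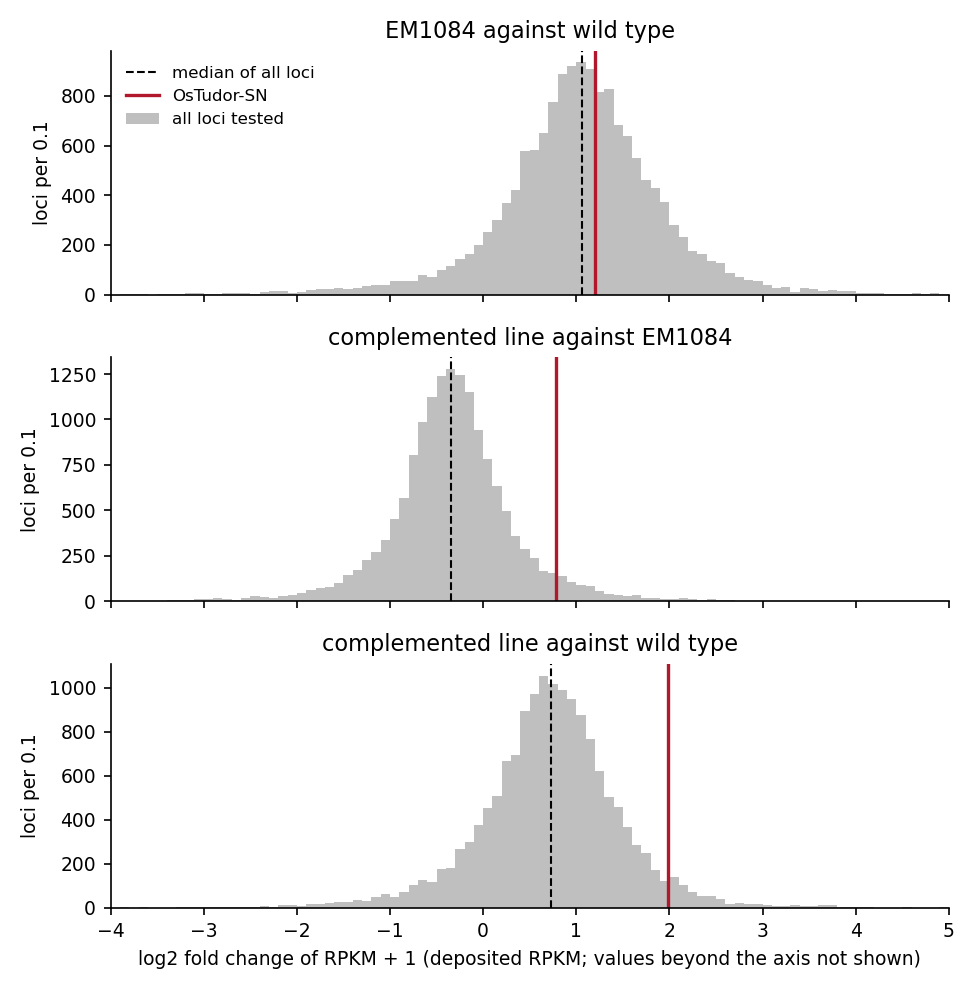
Number of loci in steps of 0.1 in log2 fold change of RPKM + 1 for the 15450 loci tested in each comparison, with the median locus (dashed) and OsTudor-SN (red line). OsTudor-SN lies near the middle for EM1084 against wild type (1.20, median 1.06) and in the upper tail in both comparisons of the complemented line (0.78 and 1.98, medians -0.34 and 0.73). Its place depends on the pseudocount: for the complemented line against wild type 4.39% of loci lie above it here, and 16.9% with a pseudocount of 0.1.

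A ratio taken inside a library does not depend on how libraries are scaled to each other. OsTudor-SN was divided by the geometric mean of 11 loci written down as common rice reference genes, all above 0 in all 9 libraries. The ratio was 3.73, 3.43 and 3.44 in the complemented line, 1.35, 1.42 and 1.41 in EM1084, and 1.70, 1.82 and 1.94 in wild type. The genotypes did not overlap, and the order was complemented line, wild type, EM1084 (exact permutation p = 0.00357, again the smallest possible). Each pair gave an exact two-sided permutation p of 0.1, the smallest that 3 libraries against 3 can give. On the log2 scale the ratio differed by 1.34 between the complemented line and EM1084, by 0.96 between the complemented line and wild type, and by -0.39 between EM1084 and wild type.

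Taken locus by locus, the ratio was higher in the complemented line than in EM1084 for 11 of the 11 reference loci, without overlap in each. Between the complemented line and wild type it was higher for 10 and lower for 1, and 9 of the 10 did not overlap. Between EM1084 and wild type it was higher for 3 and lower for 8, of which 2 and 6 did not overlap, with differences from -1.39 to 0.69 on the log2 scale. The reference loci themselves were not steady: on deposited RPKM their log2 fold changes for EM1084 against wild type ran from 0.51 to 2.57, with 11 of 11 called higher (82.7% of all loci). The RPKM of OsTudor-SN was also 74.8 to 76.3 times that of the median locus tested in the complemented line, 32 to 34.2 times in EM1084 and 39.5 to 41.5 times in wild type. By either yardstick EM1084 lay below wild type, while by deposited RPKM and by rank it lay above. The median yardstick has a limit, since a locus could pass the filter on low values through the 3 libraries of a single genotype. The median locus read 2.15 to 2.35 RPKM in wild type and 6.44 to 6.5 RPKM in EM1084. The part of the filter in this ratio was not tested.

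**Figure D4:**
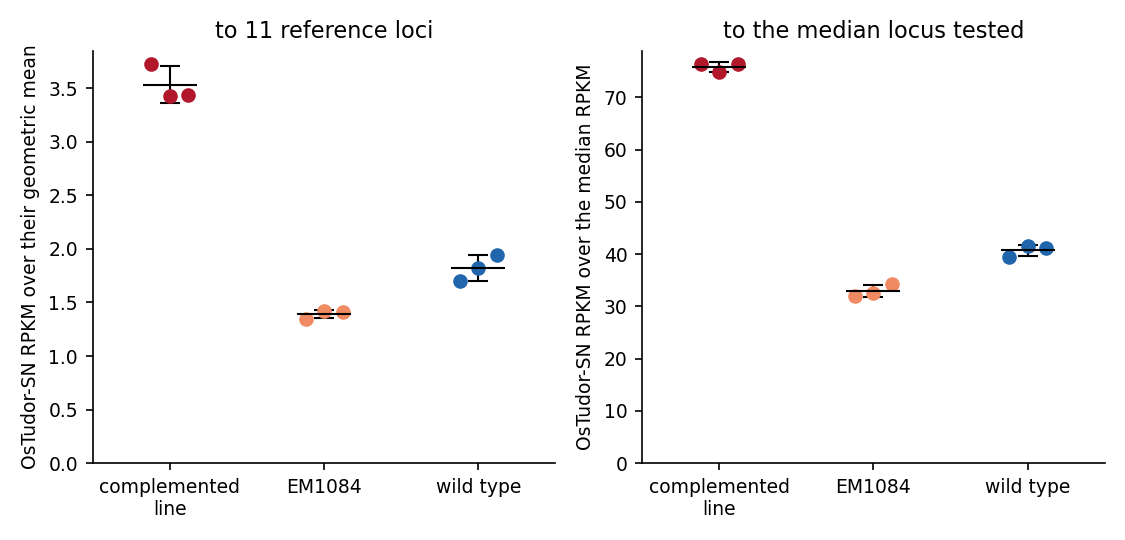
OsTudor-SN RPKM divided, within each library, by the geometric mean of 11 reference loci (left) and by the median RPKM of the loci tested (right); points are libraries, and bars give the mean ± SD of 3 libraries. The complemented line is highest (3.43 to 3.73 and 74.8 to 76.3), and EM1084 (1.35 to 1.42 and 32 to 34.2) lies below wild type (1.70 to 1.94 and 39.5 to 41.5).

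The neighbourhood of the gene was examined through the 5 listed loci on either side, whatever their values. None of the 10 exceeded 16.7 RPKM in any library, and 5 passed the filter on low values (at least 1 RPKM in at least 3 libraries). The nearest is a locus on the same strand downstream (19090970 to 19097416), 1437 bp from OsTudor-SN, and it read 7.45, 8.59 and 9.04 RPKM in the complemented line, 7.61, 7.94 and 7.89 RPKM in EM1084, and 2.92, 2.42 and 2.57 RPKM in wild type. Its complemented and EM1084 libraries overlapped (log2 fold change 0.08, SE 0.12, adjusted p = 0.59 by limma), and both lay above wild type. Under median-of-ratios scaling its EM1084 and wild type levels were not told apart by the test (log2 fold change 0.16, adjusted p = 0.24). There the same locus was called higher in the complemented line than in EM1084 (log2 fold change 0.44, adjusted p = 0.0094), where OsTudor-SN stood at 1.20. The nearest upstream locus (19111922 to 19119711, opposite strand), 6388 bp away, was at 0 in the complemented line and in wild type, and reached 0.0335 RPKM at most in EM1084.

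The neighbour at 19121903 to 19125842, upstream and on the opposite strand, differed from OsTudor-SN in direction in the complemented line against EM1084. On deposited RPKM it was, like OsTudor-SN, called higher in EM1084 than in wild type (log2 fold change 1.66, adjusted p = 1.6e-07 by limma). Under median-of-ratios scaling the neighbour was still called higher (0.44, adjusted p = 0.021 by limma), whereas OsTudor-SN was called lower (-0.17, adjusted p = 0.02 by limma). The neighbour read 5.58, 4.04 and 5.0 RPKM in the complemented line, 16.7, 14.8 and 15.7 RPKM in EM1084, and 5.15, 4.18 and 3.68 RPKM in wild type. On deposited RPKM EM1084 lay above both other genotypes, which overlapped. The complemented line was called lower than EM1084 (log2 fold change -1.52, SE 0.14, adjusted p = 1.7e-06 by limma, and -1.11 under median-of-ratios scaling). The complemented line against wild type gave 0.14 (adjusted p = 0.38) as deposited, but median-of-ratios scaling gave -0.67 (adjusted p = 0.0021), a call of lower. It was the 1 tested neighbour called lower in the complemented line than in EM1084, where 45.3% of all loci were, and no neighbour was called higher (10.2%). Against wild type, 5 of 5 tested neighbours were called higher in EM1084 (82.7%) and 4 of 5 in the complemented line (72%).

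**Figure D5:**
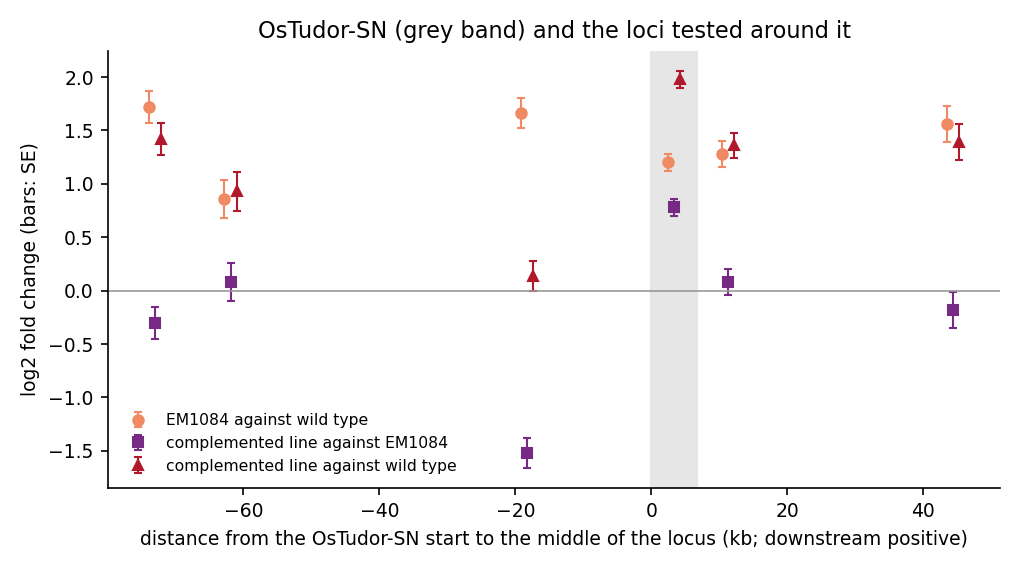
Log2 fold change (± SE) of OsTudor-SN (grey band) and of the 5 tested loci among its 10 neighbours, against the distance in kb from the OsTudor-SN start, with downstream loci to the right; circles stand for EM1084 against wild type, squares for the complemented line against EM1084, and triangles for the complemented line against wild type. OsTudor-SN has the highest square (0.78), and the neighbours' squares lie between -1.52 and 0.08.

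Loci with a pattern like that of OsTudor-SN were sought by Pearson's r of log2(RPKM + 1) over the 9 libraries, among 4663 loci with a mean of at least 10 RPKM. The table gives no gene names, so they carry their identifier only. The likeness is a description, since all loci share the libraries and their totals, and 274 loci (5.88%) reached an r of 0.95 with a median r of 0.64 over all. The highest r belonged to LOC_Os09g27420 (0.9977), which read 107, 99.2 and 108 RPKM in the complemented line, 54.4, 55.0 and 54.7 RPKM in EM1084, and 21.0, 22.3 and 18.4 RPKM in wild type. LOC_Os10g11580 came next (0.9976), with 752, 795 and 847 RPKM in the complemented line, 474, 459 and 453 RPKM in EM1084, and 227, 238 and 216 RPKM in wild type. Both kept the order complemented line, EM1084, wild type in every library.

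After median-of-ratios scaling 86 loci (1.84%) reached an r of 0.95, of which 69 had done so on deposited RPKM, and the median r over all loci was -0.15. The first 2 loci then had an r of 0.98 each, and the highest r of any locus was 0.9960. The lowest r on deposited RPKM belonged to LOC_Os02g47950 (-0.9920), with 18.4, 17.2 and 16.4 RPKM in the complemented line, 39.2, 41.3 and 41.3 RPKM in EM1084, and 96.9, 90.3 and 96.4 RPKM in wild type. LOC_Os06g10650 followed (-0.9918), with 91.6, 91.7 and 89.8 RPKM in the complemented line, 110, 111 and 110 RPKM in EM1084, and 132, 133 and 138 RPKM in wild type. These opposite patterns depended on scaling, as their r was -0.58 and -0.31 after median-of-ratios scaling.

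The glutelin and prolamin RNAs, which the protein is known to handle, were set beside its level. Of 37 loci listed as glutelins and prolamins, 26 were called lower and 8 higher in EM1084 than in wild type (5.33% and 82.7% of all loci), with a median log2 fold change of -0.80 against 1.06 over all loci. Both families showed it, with 8 of 12 glutelin and 18 of 25 prolamin loci called lower, and under median-of-ratios scaling 34 of the 37 were lower and 2 higher (26.4% and 32.6%). In the complemented line against EM1084, 22 were called higher and 8 lower (10.2% and 45.3%), with a median of 0.52 against -0.34. In the complemented line against wild type, 8 were called higher and 21 lower (72% and 7.37%), with a median of -0.48 against 0.73. The families differed here: 16 of 25 prolamin loci were called lower and 6 higher (median -0.66), but 5 of 12 glutelin loci lower and 2 higher (median -0.13). Under median-of-ratios scaling 19 prolamin loci were lower and 3 higher, and all 12 glutelin loci were lower (25% and 29.8% of all loci lower and higher). The complemented line thus had more OsTudor-SN transcript than wild type and a lower median storage locus, by more in prolamins than in glutelins. The glutelin locus with the highest mean level read 27665 ± 1334 RPKM in the complemented line, 32708 ± 1790 RPKM in EM1084 and 34456 ± 2640 RPKM in wild type (SD, n = 3 each). The second glutelin locus by mean read 42785 ± 2218 RPKM in the complemented line, 15413 ± 201 RPKM in EM1084 and 34902 ± 2076 RPKM in wild type. Only this one of the pair was called lower in EM1084 than in wild type (log2 fold change -1.18, adjusted p = 2.2e-09 by limma, against -0.07 and 0.33). In the complemented line against EM1084 the second glutelin locus was called higher (1.47, adjusted p = 1.4e-09 by limma). The first was called lower there (-0.24, adjusted p = 0.011), opposite to OsTudor-SN. In the complemented line against wild type, on deposited RPKM, the second glutelin locus was called higher (0.29, adjusted p = 0.00082 by limma). The first was called lower in that comparison (-0.31, adjusted p = 0.0012 by limma). The prolamin locus with the highest mean read 33076 ± 8774 RPKM in the complemented line, 19880 ± 2496 RPKM in EM1084 and 51664 ± 10809 RPKM in wild type. The second prolamin locus read 14863 ± 1735 RPKM in the complemented line, 10367 ± 1384 RPKM in EM1084 and 33187 ± 581 RPKM in wild type. Both prolamin loci were called lower in EM1084 than in wild type on deposited RPKM, where OsTudor-SN was higher, and both were called higher in the complemented line than in EM1084, as OsTudor-SN was.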

How the data were processed

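Seed RNA was sequenced in 9 ScriptSeq v2 libraries, as the labels say. The authors deposited RPKM values, per the file headers, with 1 column per library, and the table has 31263 loci. Aligner, read counter and genome build were not given in the sources used here. Mapped totals, transcript lengths and reads were derived from the steps of RPKM, and 281367 of 281367 values came out whole within 0.001. Each length was the smallest that made the values of its locus whole, and values of 0 counted as whole. The count is therefore not an independent check of the derived reads. Loci with at least 1 RPKM in at least 3 libraries (15450) entered a limma 3.58.1 fit of log2(RPKM + 1) in R 4.3.3 (trend and robust empirical Bayes, all 9 libraries in 1 fit, two-sided). A locus was called where its p, adjusted by Benjamini-Hochberg across the loci tested, was under 0.05, and fold changes are on the log2(RPKM + 1) scale. Exact permutation tests were two-sided between pairs. The 3 repeats are biological per the series text, and columns were matched to samples by title. Scalings other than quantile normalization multiply RPKM by factors with a geometric mean of 1. The fit was tested on simulated data in which most loci did not differ between genotypes, unlike the loci here. That test does not bear on the choice of scaling. OsTudor-SN and the lists were chosen with earlier results of these data known. Glutelin, prolamin, reference and marker loci come from general knowledge, and a list of RNA granule genes could not be filled because the reference table shares no identifiers or build with the loci. Glutelin and prolamin genes have near-identical copies, so that values of single members are uncertain. Named loci follow a rule (highest and lowest r, position, highest mean in a list). Sequences are not shown. Counting errors of reads cover counting error only, and do not replace the spread between libraries.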

Additional observations from a re-analysis of the deposited data

How the results depend on the processing

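For the log2 fold change of OsTudor-SN, both comparisons of the complemented line kept their direction and call under all 29 alternatives tried. For EM1084 against wild type, 17 of 29 alternatives kept both and 12 turned the direction: median-of-ratios scaling (-0.17), upper-quartile scaling (-0.30), median-of-ratios scaling with the replicate block (-0.17), and median-of-ratios scaling without each library in turn (-0.19 to -0.15). The median-of-ratios runs with a block or a library left out and upper-quartile scaling were chosen after seeing the data. On deposited RPKM, leaving out each library gave 1.17 to 1.24 for EM1084 against wild type, 0.74 to 0.82 for the complemented line against EM1084, and 1.94 to 2.02 against wild type. The count of loci called for EM1084 against wild type (13604 as deposited) moved past 1.5 times under quantile normalization (8564), upper-quartile scaling (9010) and median-of-ratios scaling with the block (8945), and it was 7989 to 9133 under median-of-ratios scaling without each library. For the complemented line against EM1084 (8579) it moved so under upper-quartile scaling (5676) and median-of-ratios scaling with the block (5538), and was 4675 to 6528 under that scaling without each library. When the complemented line was set against wild type (12263) it moved so under quantile normalization (8003), and was 7401 to 8627 under median-of-ratios scaling without each library. The limma joint test of OsTudor-SN kept its call under 12 alternatives. The joint permutation p of its ratio to reference loci stood at its smallest possible value throughout and says nothing of stability. With each reference locus left out, the log2 difference in that ratio ran from -0.49 to -0.28 for EM1084 against wild type, from 1.28 to 1.41 for the complemented line against EM1084, and from 0.85 to 1.06 for the complemented line against wild type.

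Replicate numbers did not pair the libraries: over 9 same-numbered pairs, the correlation of deviations from genotype means ran from -0.026 to 0.06, and the best match carried the same number in 5 of 18 cases. In this balanced design the replicate block cannot move the log2 fold changes (1.20, 0.78 and 1.98), and each was still called with it.

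Under median-of-ratios scaling the tested neighbours called higher were 2 for EM1084 against wild type (5 as deposited) and 1 for the complemented line against EM1084 (0), also 1 with scaling outside the storage lists, and 1 was called lower for the complemented line against wild type (0). Storage loci called higher in EM1084 than in wild type were 2 under median-of-ratios scaling and 5 outside the storage lists (8 as deposited), those lower in the complemented line than in EM1084 were 2 and 2 (8), and those higher in the complemented line than in wild type were 3 and 5 (8). The RNA granule list was not run. OsTudor-SN had at least 1857 reads in each library.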
